A study of Mus musculus with 2 samples.

Results

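The 10 genes described here are immediate early genes: Fos, Fosb, Jun, Junb, Egr1, Atf3, Dusp1, Ier2, Klf6 and Zfp36. They were taken by symbol from the gene table of the matrix, where each symbol names 1 of 27998 rows, and all 10 had UMIs (unique molecular identifiers, 1 per captured transcript) in both libraries. The data were single-cell RNA libraries (10x Chromium 3′ chemistry) of intestinal epithelium from C57BL/6 mice aged 8 weeks, 1 library per genotype. The WT library held 3402 cells. The Tipe0-/- library held 2006 cells from mice that lack Tipe0, the gene Tnfaip8 (TNFAIP8-/- in the labels). No agent or injury was applied to either group in the labels. Cells of each genotype were deposited as 1 library, several mice per genotype are described for the study, and the cells of single mice could not be told apart. The EDTA isolation and warm enzyme digestion that gave single cells were common to both libraries. The labels call the digested material enteroids, a word also used for cultured epithelium, while the study's methods describe enterocytes, and which of them was loaded could not be settled here.

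Immediate early genes are switched on within minutes of a growth factor, cytokine or stress signal, without new protein synthesis, mostly through MAP kinases acting on SRF, ELK and CREB factors already bound at their promoters. Their mRNAs are short lived, and many of them encode transcription factors or proteins that shut the signal off again. In the gut they are known to respond to growth factors and injury, and also to the dissociation of tissue into single cells, so a level in such a library can hold RNA made during handling.

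The positions of the members are those of GENCODE vM21 on mm10. Fos lies at chr12:85473890-85477273 (+), Jun at chr4:95049034-95052222 (-), Junb at chr8:84974484-84978718 (-) and Fosb at chr7:19302696-19310051 (-). Egr1 lies at chr18:34859823-34864984 (+), Klf6 at chr13:5861482-5870394 (+) and Atf3 at chr1:191170296-191218039 (-). Dusp1 lies at chr17:26505590-26562128 (-), Zfp36 at chr7:28376784-28380253 (-) and Ier2 at chr8:84661331-84662852 (-). Jun and Ier2 are genes without introns.

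With 1 library per genotype there was no replicate, and no p-value could be had. All intervals below are exact 95% intervals that cover counting error only: Poisson for a level, binomial for a ratio and Clopper-Pearson for a share of cells. Levels are UMIs per 1000000 UMIs of the same cells (CPM), a scale on which each captured transcript counts once whatever its length, so levels of different members can be set side by side. A gene was tested in a group of cells where both libraries together held at least 50 UMIs of it. The median log2 ratio (Tipe0-/- over WT) of all tested genes served as the reference in each group, and a member was called higher or lower when it lay at least 1.5-fold from that median with its whole interval on that side. A relative log2 ratio is the log2 ratio minus that median.

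The libraries held 38127808 UMIs (WT) and 23897126 UMIs (Tipe0-/-), with medians of 7760 and 7307.5 UMIs a cell and 9 cell barcodes in common. Mitochondrial UMIs made up 6.59% of WT and 8.56% of Tipe0-/- UMIs. The targeted gene, Tnfaip8, had 372 UMIs in WT (9.76 CPM) and 57 in Tipe0-/- (2.39 CPM), and whether the counted 3′ end lies in the deleted part is not given in the sources used here. The cells formed 15 clusters in a grouping made without the members, and 13 of the clusters could be named from marker genes: enterocyte-like (911 WT and 453 Tipe0-/- cells), goblet-like (737 and 508), cycling-like (514 and 349), stem-like (287 and 238), Paneth-like (282 and 139), tuft-like (154 and 50), lymphocyte-like (92 and 17) and enteroendocrine-like (30 and 16). Clusters 7 (224 and 154) and 10 (171 and 82) stayed unnamed. Of the enterocyte-like clusters, 1, 9 and 3 rested on 11, 10 and 4 of 15 markers, and clusters 9 and 3 had none of these markers among their 10 leading genes. Markers of other cells differed between the libraries as well: summed Paneth markers (10 of 10 found in each library) were at 15057 CPM in WT and 5918 CPM in Tipe0-/- goblet-like cells, and summed lymphocyte markers (16 of 16 found in each library) were at 275 CPM in WT and 76.4 CPM in Tipe0-/- over all cells. Their part in the results below was not tested.

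Promoter windows, 250 bases before to 50 after the annotated start, were given for 8 of the 10 members in the RefSeq table of GRCm38.p6, and not for Egr1 and Ier2. The RefSeq starts differ from the ends of the GENCODE spans above for some members. The windows of Dusp1, Atf3 and Zfp36 lie inside those spans. Windows of 4 members are shown: those of Fos, Zfp36 and Dusp1 because they hold a motif upstream of the start, and that of Atf3 because it was the member called lower in enterocyte-like cells. Capitals mark matches to 5 motifs searched on both strands: the CArG box bound by SRF, the cyclic AMP response element (TGACGTCA), the AP-1 site (TGANTCA), the TATA box (TATAAA) and the EGR site (GCGTGGGCG). No 2 of the matches overlapped in these windows. The sequences run 5′ to 3′ on the strand of the gene.
Fos, chr12:85473640-85473939 (+): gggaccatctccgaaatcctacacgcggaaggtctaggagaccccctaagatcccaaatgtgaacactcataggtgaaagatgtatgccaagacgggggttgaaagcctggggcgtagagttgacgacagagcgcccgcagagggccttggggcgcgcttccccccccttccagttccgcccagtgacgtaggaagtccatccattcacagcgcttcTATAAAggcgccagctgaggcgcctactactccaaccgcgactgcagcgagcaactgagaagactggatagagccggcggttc
Zfp36, chr7:28379179-28379478 (-): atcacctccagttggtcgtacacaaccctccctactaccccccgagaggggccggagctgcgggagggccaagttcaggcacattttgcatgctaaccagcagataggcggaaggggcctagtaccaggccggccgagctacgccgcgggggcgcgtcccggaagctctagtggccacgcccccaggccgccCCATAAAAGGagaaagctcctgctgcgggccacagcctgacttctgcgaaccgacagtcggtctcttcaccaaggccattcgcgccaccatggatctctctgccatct
Dusp1, chr17:26508423-26508722 (-): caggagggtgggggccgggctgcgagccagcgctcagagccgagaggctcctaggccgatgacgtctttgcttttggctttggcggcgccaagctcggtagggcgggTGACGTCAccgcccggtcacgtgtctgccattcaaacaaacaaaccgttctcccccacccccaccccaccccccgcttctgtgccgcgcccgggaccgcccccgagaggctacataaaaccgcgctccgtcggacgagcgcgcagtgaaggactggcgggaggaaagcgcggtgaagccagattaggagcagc
Atf3, chr1:191183284-191183583 (-): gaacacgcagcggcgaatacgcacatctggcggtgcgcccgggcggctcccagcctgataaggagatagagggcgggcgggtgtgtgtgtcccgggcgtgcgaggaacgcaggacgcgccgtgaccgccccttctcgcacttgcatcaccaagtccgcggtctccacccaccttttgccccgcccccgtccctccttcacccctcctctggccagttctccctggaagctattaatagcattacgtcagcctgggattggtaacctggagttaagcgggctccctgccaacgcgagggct
Fos carried a TATA box from 33 to 28 bases before its start, Zfp36 a CArG box from 58 to 49 bases before it and Dusp1 the cyclic AMP element from 143 to 136 bases before it. Junb held the letters of a TATA box at bases 1 to 6 after the RefSeq start. That start lies upstream of the GENCODE start of Junb, so the position depends on the annotation. The other 4 windows (Fosb, Jun, Atf3 and Klf6) held none of the 5 motifs, and no member window held an AP-1 or an EGR site. Over all 32851 windows of the table, 1.63% held a CArG box, 1.79% the cyclic AMP element, 7.81% an AP-1 site, 13.6% a TATA box and 0.612% an EGR site. A match is a string of letters in a short window and no evidence that a factor bound there.

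Klf6, Fos, Zfp36, Junb and Atf3 were highest in enterocyte-like cells in both libraries, and Jun in stem-like cells. Summed over the 10 members, the level in enterocyte-like cells was 587 CPM in WT and 755 CPM in Tipe0-/-, against 277 and 302 in goblet-like, 278 and 265 in stem-like, 271 and 231 in tuft-like, 163 and 196 in cycling-like and 102 and 123 in Paneth-like cells. Enteroendocrine-like cells, with 111 and 65 member UMIs in all, stood at 322 and 412 CPM, and lymphocyte-like cells, with 115 and 22, at 240 and 238. Enterocyte-like cells held 20.9% of all WT UMIs and 15.5% of all Tipe0-/- UMIs. They held 69.8% and 60.8% of the Atf3 UMIs, 54.9% and 48.9% of the Klf6 UMIs, 51.9% and 48.6% of the Zfp36 UMIs and 50.1% and 47.0% of the Fos UMIs. Ier2 was spread the other way, with 13.4% and 9.18% of its UMIs in these cells.

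**Figure D1:**
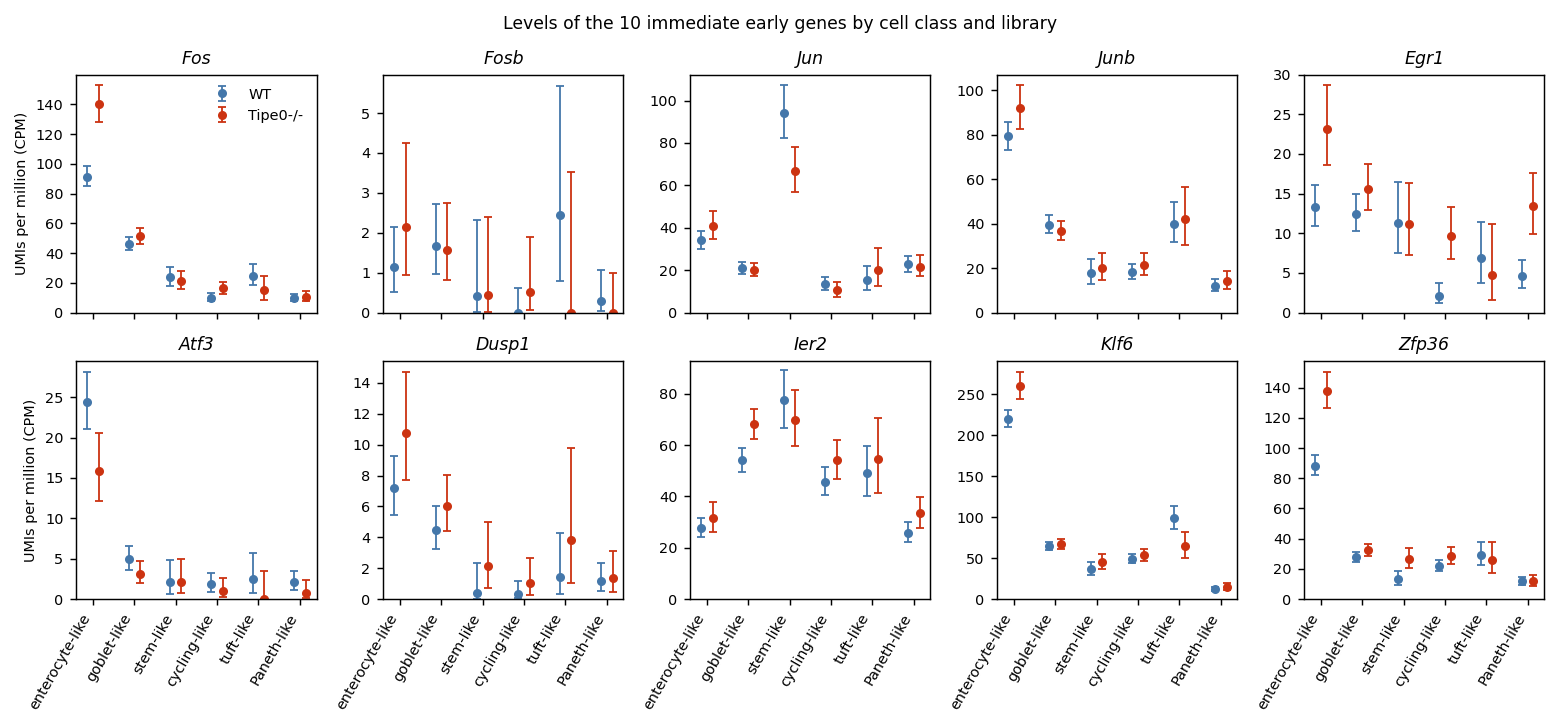
Level of each member (y axis, CPM, each panel with its own scale from 0) in 6 cell classes (x axis) for WT (blue) and Tipe0-/- (red). Points are summed UMIs of 1 library and bars exact 95% Poisson intervals. Klf6, Fos, Zfp36, Junb and Atf3 peak in enterocyte-like cells in both libraries, and Jun (94.2 and 66.8 CPM) and Ier2 (77.4 and 69.8 CPM) in stem-like cells among the classes drawn.

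Among the AP-1 factors, which bind DNA as pairs of a Fos and a Jun protein, the order of classes differed from gene to gene. Fos, the partner that needs a Jun protein to bind, stood at 91.4 CPM (WT) and 140.2 CPM (Tipe0-/-) in enterocyte-like, 46.4 and 51.3 in goblet-like, 24.8 and 15.3 in tuft-like, 23.9 and 21.0 in stem-like, 10.1 and 16.2 in cycling-like and 9.70 and 10.7 in Paneth-like cells. Among these 6 classes the enterocyte-like and goblet-like intervals were apart from each other and from all those below, and tuft-like and stem-like cells did not differ beyond their intervals. Enteroendocrine-like cells, at 46.5 CPM (26.6 to 75.5) and 57.1 CPM (26.1 to 108) on 16 and 9 Fos UMIs, overlapped goblet-like cells. Jun, which also pairs with itself, had its highest level in stem-like cells, at 94.2 CPM (82.3 to 107) in WT and 66.8 CPM (56.7 to 78.1) in Tipe0-/-, and lower levels of 34.1 and 41.0 CPM in enterocyte-like cells. Junb, a Jun protein that often counters Jun, was like Fos highest in enterocyte-like cells, with 79.3 and 92.2 CPM in enterocyte-like, 39.5 and 36.6 in goblet-like, and 39.9 and 42.0 in tuft-like cells. Goblet-like and tuft-like cells did not differ in Junb beyond their intervals in either library. Fosb was nearly absent, with 33 UMIs in the whole WT library and 25 in Tipe0-/-, and no class held enough of it for a comparison.

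Of the other transcription factors, Klf6, a zinc finger regulator of growth and injury responses, was the most abundant member, with 220.4 and 260.4 CPM in enterocyte-like and 99.3 and 65.0 CPM in tuft-like cells, and 12.1 and 15.3 CPM at its lowest, in Paneth-like cells. Atf3, a stress-induced factor, stood at 24.4 and 15.9 CPM in enterocyte-like cells and at or below 4.91 CPM in each other named class. Egr1, the zinc finger factor that responds to growth factors, was low throughout. It had 13.3 and 23.2 CPM in enterocyte-like and 12.4 and 15.6 in goblet-like cells, intervals that overlapped, and reached 35.4 CPM (20.6 to 56.7) in WT lymphocyte-like cells on 17 UMIs. Zfp36, which binds AU-rich elements and speeds the decay of early mRNAs, followed Fos, with 88.4 and 138 CPM in enterocyte-like and 27.9 and 32.3 in goblet-like cells. Dusp1, a phosphatase that switches MAP kinases off, was found at 7.16 and 10.8 CPM in enterocyte-like and 4.49 and 6.04 in goblet-like cells, with overlapping intervals. Ier2, a nuclear protein induced by growth factors, was more even over the classes than Klf6, Fos or Zfp36, with 27.8 and 31.5 CPM in enterocyte-like, 26.0 and 33.5 in Paneth-like and 77.4 and 69.8 in stem-like cells.

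Over the 20 sums of class and library (8 named classes and 2 unnamed clusters), the log2 level of the summed members was compared with each of the 2538 genes that reached 100 CPM in at least 1 sum and stood in no list. The genes most alike were Sepp1 (Pearson r = 0.91), Glrx (0.90), Max (0.90), Dpp4 (0.89) and Neurl3 (0.89). The 20 points share 2 libraries and each pair of points a class, so the r values describe a pattern and carry no test. Among the members, Zfp36 (0.87), Klf6 (0.87) and Junb (0.85) were closest to the sum they belong to, and Jun (0.39) and Ier2 (0.12) farthest from it.

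Between the libraries as a whole, the summed members stood at 286 CPM in WT and 314 CPM in Tipe0-/-, a log2 ratio of 0.14 (0.09 to 0.18) beside a median of 0.15 over all 11665 tested genes. Of the 10 members, none was called higher, where 3.85% of all tested genes were, and 1 was called lower, where 6.58% were. That member was Atf3, at 7.29 CPM (278 UMIs) in WT and 4.06 CPM (97 UMIs) in Tipe0-/-, a relative log2 ratio of -0.99. Egr1 was 8.996 CPM (8.07 to 10.0) in WT and 14.1 CPM (12.7 to 15.7) in Tipe0-/-, with a relative log2 ratio of 0.50 that missed the 1.5-fold line while its interval lay above the median. Klf6 stood at 83.8 and 82.7 CPM, Junb at 37.8 and 37.5 and Jun at 27.4 and 26.4, all within 0.21 below the median on the log2 scale. Ier2 (43.2 and 53.3 CPM), Zfp36 (35.5 and 44.1), Fos (38.0 and 46.3) and Fosb (0.87 and 1.05) lay 0.13 to 0.16 above it and Dusp1 (3.20 and 4.73) 0.41 above it. The library sums mix classes in unequal parts, 26.8% of WT and 22.6% of Tipe0-/- cells being enterocyte-like. Both libraries were therefore also weighted to the same class makeup, each class by the mean of its UMI shares in the 2 libraries. The log2 ratio of Zfp36 was then 0.47 and that of Klf6 0.14, in place of 0.31 and -0.02. In such whole-library sums, fewer cells of a class and less RNA per cell cannot be told apart.

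In enterocyte-like cells the summed level was higher in Tipe0-/- (755 CPM) than in WT (587 CPM), a log2 ratio of 0.36 (0.30 to 0.43) beside a median over genes of 0.14. Of the 9 tested members, 1 was called higher (Egr1) and 1 lower (Atf3), where 5.81% of the 8389 tested genes were called higher and 5.58% lower, while Fosb, at 9 and 8 UMIs, was not tested. Fos (727 UMIs in WT and 520 in Tipe0-/-) and Zfp36 (703 and 512) had relative log2 ratios of 0.48 and 0.50, with both intervals above the median and both under the 1.5-fold line. Egr1 had 106 and 86 UMIs and a relative log2 ratio of 0.66. Atf3 ran against these, with 194 and 59 UMIs and a relative log2 ratio of -0.75. Klf6, Junb, Jun, Ier2 and Dusp1 had relative log2 ratios of 0.10, 0.08, 0.13, 0.04 and 0.45, with intervals that reached the median or crossed it. The Egr1 call was lost without cluster 3 (relative log2 ratio 0.55) and under both other clusterings (0.51 and 0.49), and the Atf3 call was lost with the mean over cells of each cell's CPM (-0.57). Under the other clusterings, both of which kept genes of the study's genotype comparison, most absorptive cells of the libraries fell into separate clusters (443 WT and 33 Tipe0-/- cells in one and 2 and 186 in another with all variable genes, 351 and 20 and 2 and 174 with the vst genes). With the mean over cells, which lets no deep cell dominate, Fos, Egr1 and Zfp36 were all called higher. Calls under this setting, here and below, kept the interval width of the summed counts. That width is not the error of a mean over cells, in which shallow cells weigh as much as deep ones. Mitochondrial UMIs made up 9.41% in WT and 12.2% in Tipe0-/- enterocyte-like cells, and their summed enterocyte markers stood at 11934 and 16497 CPM (13 and 14 of 15 found). The part of these values in the result was not tested.

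**Figure D2:**
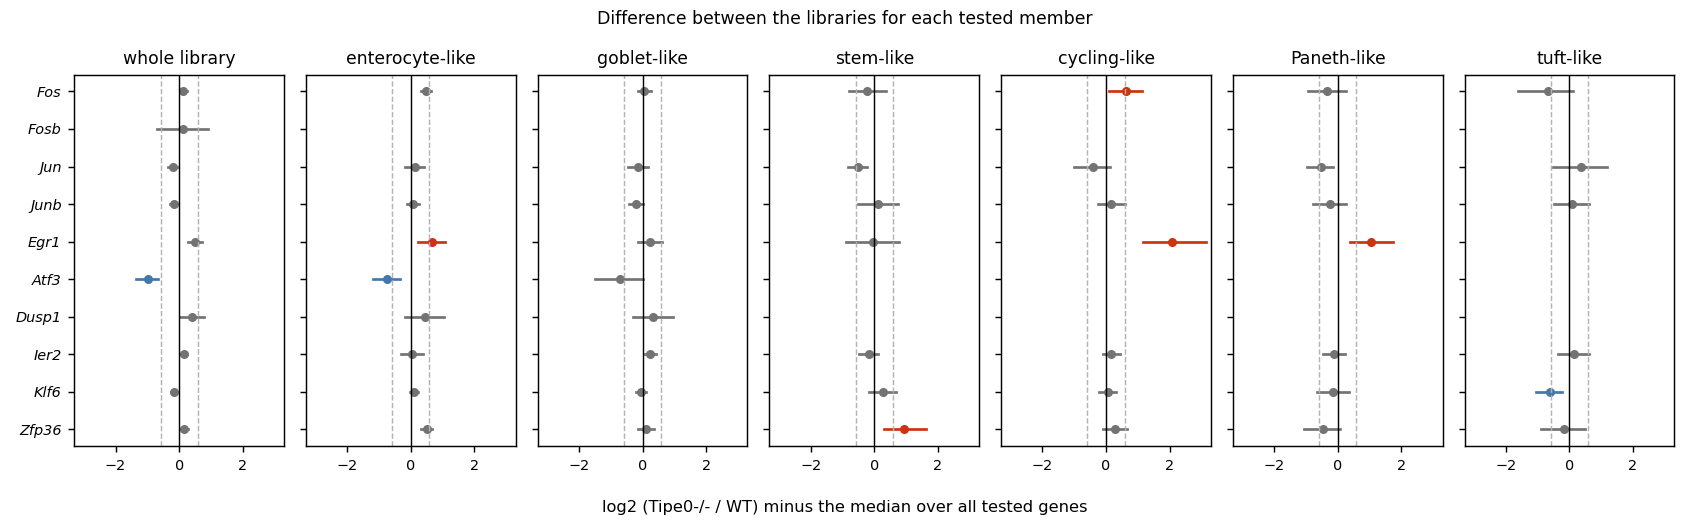
Relative log2 ratio of each tested member (x axis, log2 of Tipe0-/- over WT minus the median of all tested genes in the same cells) in the whole library and 6 classes, with exact 95% binomial intervals. Red marks members called higher, blue members called lower, and dashed lines the 1.5-fold rule. Atf3 is lower in the library (-0.99) and in enterocyte-like cells (-0.75), and Egr1 is higher in enterocyte-like (0.66), cycling-like (2.06) and Paneth-like (1.04) cells.

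Cycling-like and stem-like cells differed from each other in the members called. Of 7 tested members in cycling-like cells, Egr1 and Fos were called higher, where 3.94% of tested genes were, and none lower, where 3.22% were. Egr1 went from 2.15 CPM (13 UMIs) in WT to 9.67 CPM (37 UMIs) in Tipe0-/-, a relative log2 ratio of 2.06 with its 50 UMIs just at the minimum for a test, and it fell under that minimum where cells were left out by Scrublet score (a computed doublet score) or mitochondrial share and under both other clusterings. Fos went from 10.1 CPM (61 UMIs) to 16.2 CPM (62 UMIs), a relative log2 ratio of 0.61, which was 0.45 and lost the call with the mean over cells. A single Tipe0-/- cell held 16 of those 62 UMIs, and without the cell richest in Fos in each library the levels were 9.44 and 12.1 CPM, the relative log2 ratio was 0.28 and the call was lost. For Egr1, 10 of the 37 Tipe0-/- UMIs lay in 1 cell, and without the richest cells 9 and 27 UMIs were left, under the minimum for a test. The class joined clusters 4 and 6, which differed. Egr1 had 0 and 26 UMIs in cluster 4 and 13 and 11 in cluster 6, too few for a test in either. Fos had 23 and 40 UMIs in cluster 4 (relative log2 ratio 1.03) and 38 and 22 in cluster 6 (0.17, no call). Jun was called lower in cycling-like cells under both other clusterings (-0.71 and -0.83). Of 7 tested members in stem-like cells, Zfp36 was called higher, at 13.4 CPM (32 UMIs) in WT and 26.5 CPM (62 UMIs) in Tipe0-/- (relative log2 ratio 0.94), where 4.08% of tested genes were called higher and 3.67% lower. With all variable genes in the clustering that ratio was 0.50 and the call was lost. Jun, highest of all in stem-like cells, had 225 and 156 UMIs there and a relative log2 ratio of -0.53, with the whole interval below the median and the value short of the 1.5-fold line. Under both other clusterings Jun was called lower in stem-like cells.

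In Paneth-like cells 1 of 7 tested members, Egr1, was called higher, where 3.61% of tested genes were called higher and 4.88% lower. It stood at 4.62 CPM (31 UMIs) in WT and 13.4 CPM (50 UMIs) in Tipe0-/-, with a relative log2 ratio of 1.04 that kept the call under 8 alternatives (1.02 to 1.35) and without the cell richest in Egr1 in each library (0.999). Jun, Paneth-like cells' second most abundant member, was at 22.7 and 21.7 CPM, 0.54 below a median over genes of 0.48. That median was the largest of any class, and Paneth-like cells had median depths of 20981.5 UMIs in WT and 26111 in Tipe0-/-. Their summed Paneth markers stood at 307357 CPM in WT and 238003 CPM in Tipe0-/-. The part of these values in the median was not tested. With the mean over cells, Jun was called lower in Paneth-like cells (-0.75). In tuft-like cells 1 of 6 tested members, Klf6, was called lower, from 99.3 CPM (204 UMIs) in WT to 65.0 CPM (68 UMIs) in Tipe0-/- (relative log2 ratio -0.62), where 4.65% of tested genes were called higher and 7.11% lower. Without the cells of highest Scrublet score the ratio was -0.47 and the call was lost. Fos was called lower in tuft-like cells with all variable genes (-0.95) and with the mean over cells (-0.82). Jun was called higher there with the mean over cells (0.91). Summed markers differed in the same cells: enterocyte markers stood at 1313 and 668 CPM, tuft markers at 4897 and 3001, goblet markers at 5121 and 9751 and lymphocyte markers at 418 and 80.2, and their part in the Klf6 call was not tested. The tuft-like sums rest on 154 and 50 cells with median depths of 12011.5 and 19626.5 UMIs. In goblet-like cells none of 9 tested members was called, where 3.32% of tested genes were called higher and 4.16% lower. The median log2 ratio of the tested members was 0.15 in goblet-like cells and -0.12 without cluster 8. Atf3 had the lowest relative log2 ratio there (-0.72, on 47 and 24 UMIs), with an interval that just crossed the median, and it was called lower with all variable genes (-0.90), with the vst genes (-0.72) and without cells over 20% mitochondrial UMIs (-0.77). In the other direction, Egr1 (0.91) and Dusp1 (0.73) were called higher in goblet-like cells with the mean over cells.

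None of the 4 members tested in unnamed cluster 10 and none of the 2 tested in unnamed cluster 7 was called. In cluster 10, 5.62% of tested genes were called higher and 5.62% lower. In cluster 7 the shares were 4.36% and 4.8%. In lymphocyte-like and enteroendocrine-like cells no member reached 50 UMIs. The members' directions were mixed over classes: Egr1 was called higher in 3 classes and lower in none, and Fos and Zfp36 each in 1, while Atf3 and Klf6 were each called lower in 1. For Egr1 the minimum of 50 UMIs limits this tally. With 13 WT UMIs in cycling-like and 31 in Paneth-like cells, a lower call could not have reached the minimum. In tuft-like (14 and 5 UMIs) and lymphocyte-like cells (17 and 1) Egr1 had too few UMIs for a test.

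The goblet-like class joined clusters that did not act alike. Cluster 8 was led by Sval1, Zg16, Fcgbp, Clca1 and Tff3, genes of mature mucus-secreting cells, and held 196 WT and 128 Tipe0-/- cells. Its summed members stood at 311 CPM (371 UMIs) in WT and 596 CPM (415 UMIs) in Tipe0-/-, a log2 ratio of 0.94 (0.74 to 1.15) beside a median over genes of 0.04. Of the 6 members tested there, 4 were called higher (Egr1, Fos, Klf6 and Ier2), where 5.42% of the 3558 tested genes were. Egr1 had 13 and 41 UMIs (10.9 and 58.9 CPM) and a relative log2 ratio of 2.36, and was under the minimum for a test without the cell richest in it in each library (9 and 36 UMIs). It reached that minimum only through its Tipe0-/- UMIs, and at its WT level in both libraries it would not have been tested. The Egr1 call therefore adds no support to the count of 4. Fos had 97 and 128 UMIs (81.2 and 183.9 CPM) and a relative log2 ratio of 1.14. Klf6 (62.8 and 120.7 CPM) and Ier2 (39.4 and 63.2 CPM) had relative log2 ratios of 0.90 and 0.64. Junb and Zfp36 were the tested members without a call, at 0.47 and 0.39, and Atf3, Jun, Dusp1 and Fosb had under 50 UMIs each.

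Clusters 0 and 12, the other goblet-like clusters, showed no such gap. In cluster 0, led by Creb3l1 and Spdef, the sum was 207 and 227 CPM with none of 7 tested members called higher, where 3.37% of tested genes were. Cluster 12 shared Zg16, Clca1, Fcgbp, Tff3 and Sval1 with cluster 8 among its leading genes, so these mucus genes do not set cluster 8 apart. The sum in cluster 12 was 530 and 588 CPM with none of 6 tested members called higher, where 4.78% of tested genes were. Cluster 12 held 218 of the 444 WT and 111 of the 391 Tipe0-/- Fos UMIs of goblet-like cells. Its summed enterocyte markers stood at 4053 CPM in WT and 5416 CPM in Tipe0-/-, against 1382 and 1941 CPM in cluster 8. The part of these markers in the levels of cluster 12 was not tested. The cluster 8 sum kept a log2 ratio of 0.89 to 1.18 in 8 alternatives. In the cluster that shares most cells with it under the other clusterings, 4 of 6 and 3 of 5 tested members were called higher. Those clusters held 319 (all variable genes) and 261 (vst genes) of the 324 cells of cluster 8, so they are largely the same cells. With all variable genes, 5 members were also among the genes used for clustering. Other values differed in cluster 8 as well. Summed goblet markers were 200408 CPM in WT and 249263 CPM in Tipe0-/-, summed Paneth markers 46058 and 12691 CPM, mitochondrial UMIs 8.20% and 10.5%, and median depth 5141.5 and 4898 UMIs. Their part in the difference was not tested.

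**Figure D3:**
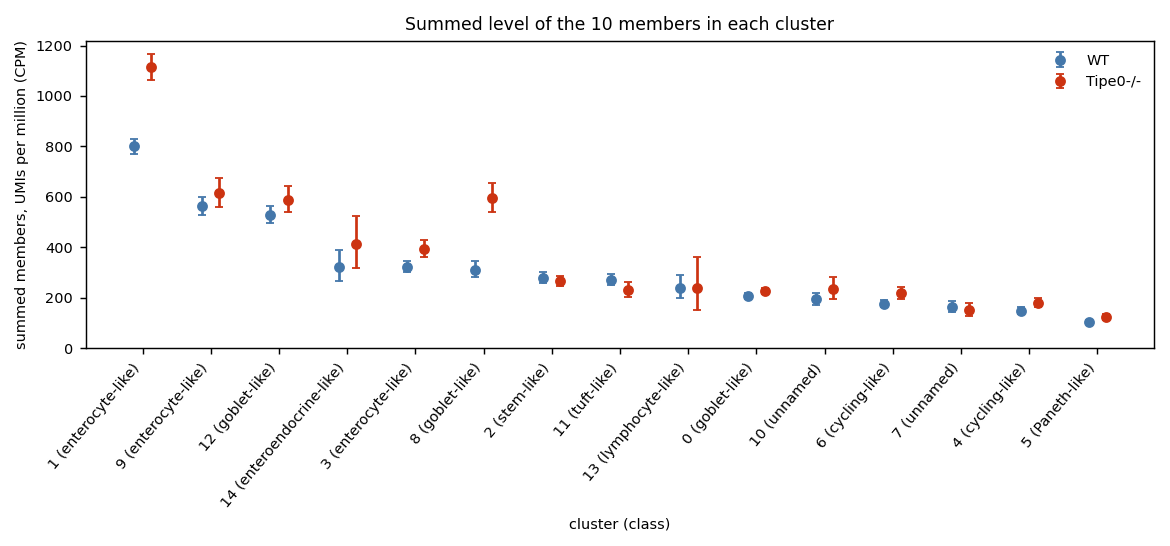
Summed level of the 10 members (y axis, CPM) in each of the 15 clusters (x axis, with the class of each, in order of the WT level) for WT (blue) and Tipe0-/- (red). Bars are exact 95% Poisson intervals of the summed UMIs. Cluster 1 is highest in both libraries (801 and 1114), and cluster 8 has the widest gap relative to its WT level (311 and 596).

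Within the enterocyte-like class the level differed between clusters. Cluster 1, led by Apoa4, Slc6a19 and Apoa1 and so by absorptive genes, had 801 CPM of summed members in WT and 1114 CPM in Tipe0-/-, cluster 9, led by Arg2, Fabp6 and Slc51b, 563 and 615, and cluster 3 only 321 and 392. Egr1 and Zfp36 were called higher in cluster 1, that is 2 of 9 tested members where 6.69% of tested genes were called. Zfp36 had 431 and 336 UMIs there (121.4 and 203.9 CPM) and Fos 505 and 376 (142 and 228.2 CPM), with relative log2 ratios of 0.61 and 0.54. Summed enterocyte markers of cluster 1 stood at 22935 CPM in WT and 33325 CPM in Tipe0-/-, and their part was not tested. In cluster 3, Fos was called higher, 1 of 5 tested where 5.05% of genes were, with 90 and 79 UMIs. None of the 5 members tested in cluster 9 was called higher, where 6.06% of genes were, and Egr1 had 28 and 7 UMIs in that cluster, too few for a test. Atf3 was tested in cluster 1 alone of the 3, at 40.01 and 30.95 CPM, with a relative log2 ratio of -0.50 that missed the rule. It had 41 and 6 UMIs in cluster 9 (23.9 and 8.49 CPM) and 11 and 2 UMIs in cluster 3, too few for a test in either.

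Over each whole library, every member was found in a minority of cells. After each cell was thinned to 3000 UMIs, Klf6 was present in 22.3% of WT and 22.3% of Tipe0-/- cells, Zfp36 in 10.5% and 14.1%, Fos in 10.1% and 13.3%, Egr1 in 2.44% and 4.99%, and Atf3 in 2.65% and 1.89%. Without thinning the shares were 45.6% and 46.5% for Klf6, 27.5% and 32.7% for Zfp36, 22.3% and 26.9% for Fos, 6.32% and 11.2% for Egr1 and 5.94% and 3.54% for Atf3. No epithelial class is known to lack these genes, so no share of free RNA could be set beside them. Paneth-like cells had the lowest sum, and there 28.01% of WT and 33.8% of Tipe0-/- cells had any member after thinning, against 73.7% and 79.7% of enterocyte-like cells. Klf6 alone was present in 47.4% of WT and 51.0% of Tipe0-/- enterocyte-like cells after thinning. Median depths were 20981.5 and 26111 UMIs in Paneth-like and 6471 and 5721 UMIs in enterocyte-like cells.

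Cells with 3 or more members after thinning made up 6.41% of WT (5.61% to 7.28%) and 8.67% of Tipe0-/- (7.48% to 9.99%). In cluster 1 they were 26.8% (22.6% to 31.3%) and 37.2% (30.9% to 43.9%), and in cluster 3 they were 3.72% (1.87% to 6.55%) and 8.55% (4.63% to 14.2%), intervals that overlapped. Cluster 8 had the widest gap, 8 of 196 in WT (4.08%, 1.78% to 7.88%) and 30 of 128 in Tipe0-/- (23.4%, 16.4% to 31.7%). Clusters 0 (1.92% and 1.56%), 9 (12.95% and 12.8%) and 12 (19.4% and 21.7%) had overlapping intervals as well. In cluster 8, Egr1 was found in 2.55% of WT and 17.97% of Tipe0-/- cells and Junb in 9.69% and 20.3%. Paneth-like cells had 1 cell of 282 and 0 of 139 with 3 or more members, where a count of 0 allows up to 3 cells, a share of 2.16% (exact upper bound 2.62%).

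**Figure D4:**
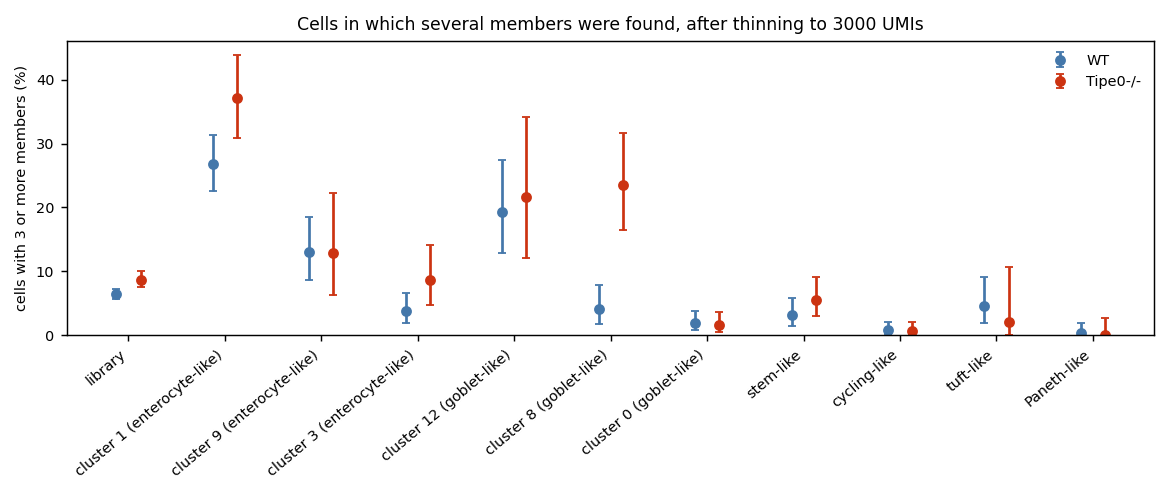
Share of cells (y axis, percent) in which 3 or more of the 10 members were found after thinning every cell to 3000 UMIs, for WT (blue) and Tipe0-/- (red), in the library, single clusters and other classes (x axis). Bars are exact 95% Clopper-Pearson intervals. The widest gap is in cluster 8 (4.08% and 23.4%), and the highest shares are in cluster 1 (26.8% and 37.2%).

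Rank correlations between members over single cells were low. Of the pairs with at least 20 cells for each gene, the median Spearman correlation over thinned enterocyte-like cells was 0.10 in WT (36 pairs, -0.04 to 0.21) and 0.12 in Tipe0-/- (28 pairs, 0.01 to 0.33). In goblet-like cells it was 0.06 and 0.11 over 21 pairs each. Cells with both genes of a pair were also set against the number given by the product of the genes' shares. The median ratio was 1.60 (WT) and 1.46 (Tipe0-/-) in enterocyte-like and 1.48 and 1.74 in goblet-like cells. It was 0.85 and 1.45 in stem-like and 1.08 and 0.93 in cycling-like cells. The highest correlation was that of Fos with Egr1 in Tipe0-/- goblet-like cells, 0.37 over 508 cells. There 23 cells held both, where the product of the shares gives 5.83. In enterocyte-like cells the highest were Jun with Atf3 in WT (0.21 over 911 cells) and Fos with Egr1 in Tipe0-/- (0.33 over 453 cells). In stem-like and cycling-like cells median correlations lay between -0.04 and 0.09 over 3 to 10 pairs. These values are descriptions over cells of 1 library in sparse counts. The 10% of cells richest in members held 37.0% of the member UMIs in WT and 37.7% in Tipe0-/-, and the summed members per thinned cell had Spearman correlations of 0.14 and 0.09 with the mitochondrial share and -0.12 and -0.14 with depth.

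The other genes of the early response were taken from 7 lists. Of 22 measured immediate early transcription regulators outside the members, 17 were tested in the whole library, with 2 called higher and 1 lower, beside 3.85% and 6.58% of all tested genes. The higher ones were Hes1, a Notch target, at 52.1 CPM in WT and 108 CPM in Tipe0-/-, and Myc, a growth regulator, at 20.1 and 44.0 CPM, and the lower one was Arid5a, at 2.83 and 1.67 CPM. In stem-like, cycling-like and tuft-like cells 5 of the 11 tested were called higher in each class and none lower, beside 4.08%, 3.94% and 4.65% of all tested genes called higher. Hes1 and Myc were among those 5 in all 3 classes, and so was Id2, an inhibitor of differentiation factors. In enterocyte-like cells Klf10, Hes1 and Bhlhe40 were called higher, 3 of 11 beside 5.81% of all genes. Goblet-like cells had 3 of 14 called higher, unnamed cluster 10 had 2 of 5 and unnamed cluster 7 had 2 of 9. Of all tested genes there, 3.32%, 5.62% and 4.36% were called higher. In Paneth-like cells 2 of 11 were called higher and 1 lower, beside 3.61% and 4.88% of all tested genes. The median relative log2 ratio of this list was 0.00 in the library, 0.31 in enterocyte-like and 0.58 in cycling-like cells, beside 0 over all tested genes by construction, and 0.13 over the members in enterocyte-like and 0.17 over those in cycling-like cells.

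The lists closest to the members in function differed in their calls. Of all tested genes of the library, 3.85% were called higher and 6.58% lower. Of 6 tested AP-1 and small Maf factors, 1 was called lower in the library and none higher: Batf2, at 21.9 and 11.4 CPM. The most abundant of that list, Jund, had 262 CPM in WT and 239.9 CPM in Tipe0-/-. Of 12 tested MAP kinase phosphatases and feedback inhibitors, Dusp2 (50 and 10 UMIs) and Dusp6 (672 and 303 UMIs, relative log2 ratio -0.63) were called lower and none higher. Neither was called lower in any class or unnamed cluster. Dusp2, with few UMIs, can fall under the minimum for a test there. Dusp6 was the most abundant of the list in WT enterocyte-like cells and was tested in that class without a lower call. The part of class makeup in these library calls was not tested. Within classes, 1 of 8 was called higher in enterocyte-like (Spred1), 1 of 4 in stem-like (Spred1) and 2 of 5 in cycling-like cells (Spry2 and Errfi1). Of all tested genes there, 5.81%, 4.08% and 3.94% were called higher. In goblet-like cells 1 of 9 was called lower (Dusp8), beside 4.16% of all tested genes. Spred2, at 19.96 and 28.2 CPM, was the most abundant and had no call. Of 15 tested RNA decay and growth arrest genes, 2 were called higher and none lower. Those were Zfp36l2, a relative of Zfp36, at 92.03 and 160.3 CPM, and Sgk1, a kinase gene induced by glucocorticoids, at 14.2 and 46.7 CPM. Sgk1 was called higher in enterocyte-like (49.6 and 173 CPM), goblet-like (5.54 and 17.3), stem-like (12.1 and 70.2), cycling-like (5.78 and 14.9) and Paneth-like (1.49 and 20.3) cells. Of all tested genes in these classes, 5.81%, 3.32%, 4.08%, 3.94% and 3.61% were called higher. In the other direction, 2 of 9 genes of this list were called lower in tuft-like and 1 of 10 in Paneth-like cells. Of all tested genes there, 7.11% and 4.88% were called lower.

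Calls among genes of NF-kB and cytokine feedback were mostly lower, although most of the list had no call in the library. Of 10 tested, 4 were called lower in the library and none higher, beside 6.58% of all tested genes called lower: Socs1 (14.3 and 4.60 CPM), Nfkbiz (61.6 and 38.4), Irf1 (72.4 and 47.9) and Socs3 (27.3 and 18.7). Nfkbia, the inhibitor of NF-kB and the most abundant of the list, had 75.6 and 98.5 CPM and no call in the library. Of this list 3 of 9 were called lower in enterocyte-like, 4 of 9 in goblet-like, 5 of 8 in tuft-like, 3 of 6 in stem-like, 3 of 8 in cycling-like and 2 of 6 in Paneth-like cells, beside 5.58%, 4.16%, 7.11%, 3.67%, 3.22% and 4.88% of all tested genes. In unnamed cluster 7, 2 of 4 were called lower, beside 4.8%. Calls in the other direction were Relb in stem-like cells (24.3 and 38.5 CPM) and Nfkbia in unnamed cluster 10 (77.8 and 121.9 CPM), 1 of 5 tested there, and in enteroendocrine-like cells (29 and 25 UMIs), the 1 gene tested there, where 7.88% of all genes were called higher and 5.76% lower. Of 12 tested heat shock genes, which also respond to handling of tissue, none was called in the library, with Hsp90ab1 at 1065 and 1082 CPM and a list median of 0.00. Hsph1 was called lower in enterocyte-like and Dnajb4 higher in goblet-like cells, 1 of 11 each, beside 5.58% and 3.32% of all tested genes. Of 24 tested growth factor and MAP kinase components, Egf (26 and 50 UMIs) was called higher and Elk3 (61 and 17 UMIs) lower. The shares of all tested genes were 3.85% and 6.58%. Map2k2, the most abundant, had 158 and 145 CPM. Lymphocyte markers, given above, were lower in Tipe0-/- in the same libraries, and their part in these values was not tested.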

How the data were processed

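The authors deposited, for each of the 2 libraries, a matrix of UMI counts per gene and cell, made with Cell Ranger on mm10 (submitters' processing notes). The counts were used as deposited, with no further filter on cells. The lowest depth was 3247 UMIs a cell in WT and 3562 in Tipe0-/-. The 10 members and all gene lists were chosen with earlier results of these data known. Genes named in the text were the members, list genes that were called or most abundant in their list, and the 5 genes whose log2(CPM + 1) over classes was most alike to the summed members. The columns of the study's own comparisons were not used, except that the symbols in its genotype comparison were kept out of the clustering.

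Both libraries were clustered together in Seurat 5.3.0 (R 4.3.3) with log-normalized counts, 14 principal components and resolution 0.8. Of 582 variable genes, 516 were used: members, list genes and genes of the genotype comparison were left out. A cluster was named from the marker list with the highest mean standardized level, if at least 3 markers were found in at least 10% of its cells and at a share 1.5 times that of other cells, and if its 10 leading genes held no more markers of another class. Counts were summed per class and library, 0.5 was added to each sum for log2 ratios, and shares of cells refer to cells thinned at random to 3000 UMIs each. A count of 0 allows up to 3 counts. Scrublet (scanpy 1.11.5) marked 17 cells in WT and 3 in Tipe0-/-, a share so low that the caller did not work, so no doublets were removed and the 5% of cells with the highest scores were left out as an alternative. Stromal, endothelial and myeloid markers summed to 20.3 CPM in WT and 15.6 CPM in Tipe0-/-. The call rule and the intervals were checked on simulated counts that held counting error only, so the check does not cover differences between mice or libraries. Levels were computed with Python 3.11.15 and SciPy 1.17.1.

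Tissue dissociation is described differently in the labels (collagenase and dispase, on enteroids) and in the study's methods (DNase and dispase, on enterocytes), and no value for its effect was measured here.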

Additional observations from a re-analysis of the deposited data

How the results depend on the processing

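No paired analysis was possible because there was 1 library per genotype. Depth limits the low members most: Fosb was tested in the whole library only, and Atf3 and Dusp1 in 2 classes each.

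The class results were computed under 6 other settings and under 2 more chosen after seeing the data (without the 18 cells of shared barcodes, and without cluster 3 or cluster 8), and class medians also without cells over 20% mitochondrial UMIs. Of 50 class medians under an alternative, 48 moved by less than the members' median counting error. Those that moved were both in goblet-like cells, where the median log2 ratio of 0.15 became 0.40 with the mean over cells of each cell's CPM and -0.12 without cluster 8. Of 49 counts of members called, 14 moved by more than 1.5 times. The counts ignore which member was called and in which direction, so an unmoved count can hide a change of calls. In stem-like cells with all variable genes, Zfp36 lost its higher call and Jun gained a lower one. In cycling-like cells under both other clusterings, Egr1 lost its higher call and Jun gained a lower one. With all variable genes in the clustering, 1 member was called in enterocyte-like cells (2 in the main analysis), 1 in goblet-like (0) and 2 in tuft-like cells (1). With 2000 variable genes by the vst method, 1 was called in enterocyte-like, 1 in goblet-like and 2 in stem-like cells (1). Without cluster 3, 1 was called in enterocyte-like cells. Without the 5% of cells with the highest Scrublet scores, 0 were called in tuft-like and 1 in cycling-like cells (2). With the mean over cells, 2 were called in goblet-like, 2 in Paneth-like (1), 3 in tuft-like, 1 in cycling-like cells and 2 in the library (1). The cause of these moves was not tested. Totals without mitochondrial genes and the 20 most abundant genes, the minimum of 20 UMIs and the shared barcodes moved none of them.

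The log2 ratio of the summed members in cluster 8 was 0.94, and, among settings chosen after seeing the data, 1.18 in the matching cluster of the vst clustering. Of the 10 members' differences in the share of cells with a UMI over the library (Tipe0-/- minus WT), 4 moved beyond counting error without thinning: Egr1 from 2.55 to 4.85 percentage points, Atf3 from -0.75 to -2.40, Dusp1 from 0.43 to 1.35 and Ier2 from 1.42 to 4.13. Differences within that error changed sign for Junb (-0.38 to 1.35) and Fosb (0.16 to -0.07). Of 90 log2 ratios of single members over the library, 83 were counted as unmoved. For members other than Atf3 that meant a move of less than their counting error. For Atf3 it meant only a value at least 1.5-fold below the median, which held in all 9 of its settings. Both other clusterings and the lower UMI minimum cannot change a library ratio, because the same cells are summed. Ratios under those settings were therefore fixed in advance and tell nothing about stability. Of the other 7, Fos (0.58), Egr1 (0.95), Klf6 (0.15) and Zfp36 (0.51) moved with the mean over cells. Egr1 (0.88) also moved without its 1% richest cells, and Klf6 and Zfp36 with equal class weights. Without the 1 cell of each library richest in the gene, a setting also chosen after seeing the data, 12 of 15 calls in the library, classes and clusters 1, 3 and 8 remained, and those of Fos and Egr1 in cycling-like cells and of Egr1 in cluster 8 were lost.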
